A study of Mus musculus with 12 samples.

Results

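The genes described here are 9 genes of the bone matrix and of the osteocyte, followed in newborn mouse calvaria from early matrix production to the late osteocyte. They were taken by name (*Ibsp*, *Spp1*, *Fam20c*, *Pdpn*, *Phex*, *Dmp1*, *Mepe*, *Sost* and *Fgf23*) from 23715 genes, of which 13059 were expressed highly enough to be tested. Of the 9 genes, 8 were tested. The exception was *Fgf23*, which did not reach 1 FPKM in any mouse. FPKM divide the fragments of a transcript by its length and by the depth of the library, so that levels of different genes can be compared per length.

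The study asked whether MED23, a subunit of the Mediator complex that links transcription factors to RNA polymerase, works with the bone transcription factor RUNX2. RNA-seq covered 12 C57BL/6 mice in 4 groups of 3. The *Med23* set held *Med23* fl/fl control littermates (P-Ctrl) and *Med23*MSC-/- mice (P-KO), in which *Prx1-Cre* deletes *Med23* in mesenchymal stem cells and their descendants. The *Runx2* set held wild-type littermates (R-WT) and *Runx2*+/- mice (R-Het), which carry 1 disrupted allele in every cell. *Prx1-Cre* is active mainly in limb, ventral and craniofacial mesenchyme, and cells of other origin in the tissue, such as osteoclasts, blood, muscle and nerve, should keep *Med23*. The labels call all tissue newborn calvaria, and the methods name the parietal bone shortly after birth. No source used here gives batches, dates or which mice shared a litter, so the p-values measure the spread between these mice only.

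Osteoblasts lay down collagen and then acidic phosphoproteins that control the growth of mineral. The SIBLING proteins (small integrin-binding ligand, N-linked glycoproteins) are such phosphoproteins, encoded side by side in 1 gene cluster. Some osteoblasts become buried and turn into osteocytes, which make DMP1, MEPE and PHEX early and the Wnt inhibitor sclerostin late. Osteocytes also govern phosphate in blood through the hormone FGF23.

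The cluster ran over 243.5 kb of chromosome 5 (GRCm38) from the start of *Dmp1* (chr5:104197575-104214102) through *Ibsp* (chr5:104299287-104311472) and *Mepe* (chr5:104325329-104338611) to the end of *Spp1* (chr5:104435111-104441053). *Fam20c*, whose product phosphorylates secreted proteins including the SIBLINGs, lies far away on the same chromosome (chr5:138755081-138810063). The 4 stretches below lie just before the transcript starts of the clustered genes and show where they differ in RUNX core letters. They are RefSeq promoter windows of build GRCm38.p6, plus strand, ended before the GENCODE start of the transcript in the files. Capitals mark TGTGGT or its reverse complement ACCACA, the core letters that RUNX proteins bind. TGCGGT and ACCGCA were also searched.
Dmp1 (chr5:104202367-104202612): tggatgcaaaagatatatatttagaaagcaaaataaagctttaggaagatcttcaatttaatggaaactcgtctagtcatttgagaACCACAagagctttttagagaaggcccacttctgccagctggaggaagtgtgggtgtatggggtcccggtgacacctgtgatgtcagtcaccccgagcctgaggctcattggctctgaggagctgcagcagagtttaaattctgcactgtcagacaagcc
Ibsp (chr5:104299037-104299170): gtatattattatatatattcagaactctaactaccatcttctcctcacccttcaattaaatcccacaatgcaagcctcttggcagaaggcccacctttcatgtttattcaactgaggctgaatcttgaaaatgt
Mepe (chr5:104325079-104325328): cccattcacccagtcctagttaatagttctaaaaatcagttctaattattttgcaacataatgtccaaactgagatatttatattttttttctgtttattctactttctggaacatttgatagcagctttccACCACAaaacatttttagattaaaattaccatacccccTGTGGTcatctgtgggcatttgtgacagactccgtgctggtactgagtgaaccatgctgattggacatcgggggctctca
Spp1 (chr5:104434861-104435110): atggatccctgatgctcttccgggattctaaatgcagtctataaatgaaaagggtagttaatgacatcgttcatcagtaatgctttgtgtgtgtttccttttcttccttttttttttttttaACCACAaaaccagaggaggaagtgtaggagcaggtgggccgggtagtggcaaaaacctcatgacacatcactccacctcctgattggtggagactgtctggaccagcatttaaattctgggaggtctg

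The *Mepe* stretch held 2 such cores, 118 and 80 bases before the RefSeq start at the end of its window, whereas 2.01% of 32851 promoter windows held 2 or more. *Spp1* held 1, at 128 bases, and *Dmp1* held 1, at 164 bases. Either core was present in 18.6% of all windows. No core was found in the 250-base RefSeq windows of *Ibsp*, *Fam20c*, *Pdpn*, *Phex*, *Sost* or *Fgf23*. The windows of the upstream start of *Dmp1* and of the downstream start of *Spp1* held none either. The *Fam20c* window (chr5:138754831-138755080) lies after the GENCODE start of its transcript at 138754514, so the bases before that start were not searched. The full *Ibsp* window runs past the GENCODE start at 104299171. These are matches of letters and not measurements of binding.

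In the 6 control mice of both sets, the level of *Spp1* was the highest of the 9 genes, with a median of 17676 FPKM (range 11569 to 19342). Its mean ranked at number 2 of all genes. *Ibsp* followed at 1230 FPKM (907 to 1459) and *Dmp1* at 194 (179 to 307). These ranges did not overlap. *Mepe* at 82.3 FPKM (55.0 to 109), *Phex* at 73.2 (61.2 to 91.7) and *Pdpn* at 61.9 (46.2 to 66.9) overlapped in their ranges and could not be ordered. *Fam20c* at 31.8 FPKM (25.7 to 34.5) and *Sost* at 12.7 (7.25 to 18.1) were lower. *Fgf23* at 0.314 FPKM (0.207 to 0.477) was near the detection limit. The matrix genes *Spp1* and *Ibsp* were thus the most abundant, and the late osteocyte genes *Sost* and *Fgf23* the least.

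**Figure D1:**
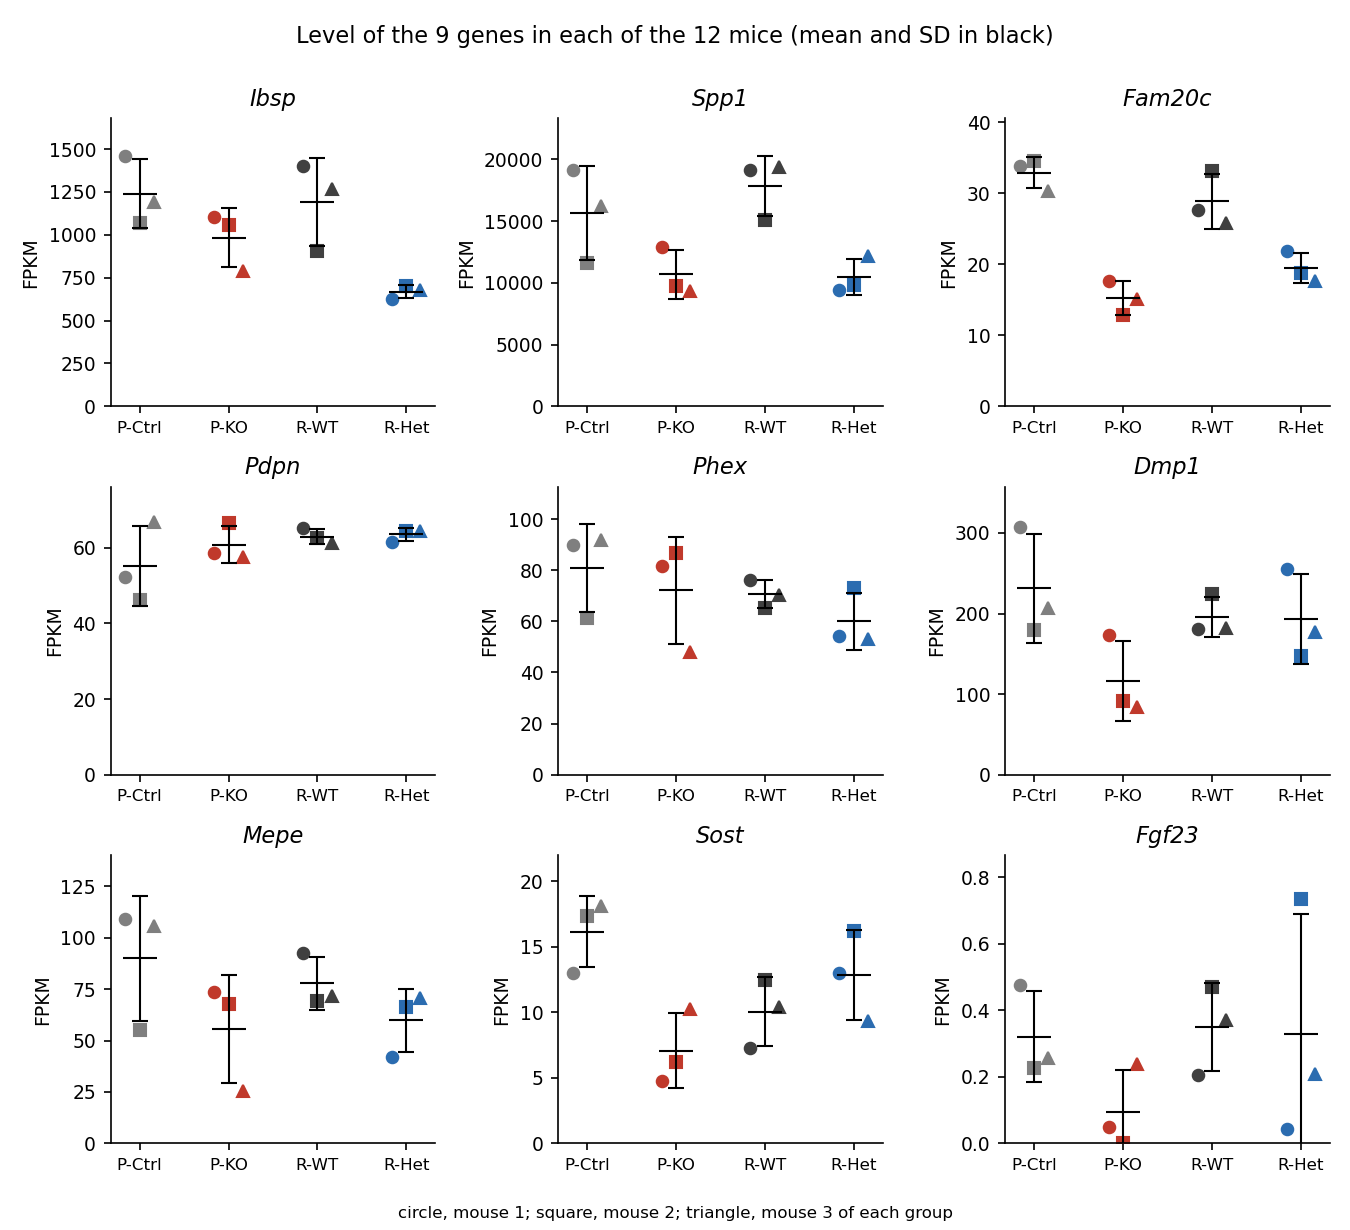
FPKM of each of the 9 genes (y axes, linear and from 0) in the 4 groups (x axes), with 1 symbol per mouse and the mean ± SD of 3 mice in black. The 3 P-KO mice lie below the 3 P-Ctrl mice for *Fam20c*, *Dmp1* and *Sost*, and the 3 R-Het mice lie below the 3 R-WT mice for *Ibsp*, *Spp1* and *Fam20c*. Error bars that reach below 0 are cut at 0.

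The libraries were alike in their FPKM sums, at 891329 to 1068933 per mouse, but not in depth. The smallest steps of the values put the depth at about 7780000 to 11770000 fragments. P-KO libraries were the shallower of their set, at 7890000 to 8900000 fragments against 10150000 to 11770000 in P-Ctrl. Pearson's r between any pair of libraries was 0.963 to 0.988 on the log2 scale. *Xist*, which marks female cells, was at 37.8 to 49.1 FPKM in P-Ctrl mice 2 and 3 and R-WT mouse 1. It was at most 0.0663 in the other 9 mice, so all mutant libraries were male and 3 controls female. Sex was thus partly confounded with genotype in both sets, and most in the *Med23* set, where P-Ctrl mouse 1 was the only male control. The mRNA of neither targeted gene checked the labels. *Med23* was at 5.99, 5.42 and 4.54 FPKM in P-Ctrl and 4.89, 5.74 and 5.28 in P-KO mice. *Runx2* was at 29.8, 37.7 and 27.3 FPKM in R-WT and 34.3, 30.4 and 35.7 in R-Het mice. In the *Med23* set, *Runx2* was at 38.0, 38.0 and 30.5 FPKM in P-Ctrl and 23.7, 27.7 and 28.7 in P-KO mice, with an adjusted p of 0.127. The deposited values sum whole transcripts and do not show the deleted exons or the disrupted allele.

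Deletion of *Med23* in mesenchymal cells went with a lower level of the SIBLING kinase gene *Fam20c*, the only one of the 8 tested genes that fell by the test across all genes. *Dmp1* and *Sost* also lay lower in all 3 P-KO mice than in all 3 controls, without passing the test. At adjusted p under 0.05, 1 of 8 genes was lower and 0 were higher, where 0.559% of all tested genes were lower and 1.01% were higher. All P-KO mice lay below all controls for 3 of the 8 genes and for 7.68% of all tested genes. This was not particular to these genes. In related lists described below it held for 10 of 14 osteoblast genes, 6 of 15 further osteocyte genes and 5 of 12 phosphate genes. Among SIBLING receptors it held for 1 of 9. The estimate was negative for 7 of the 8, and their median log2 difference was -0.65 against 0.06 over all tested genes. Of all genes, 73 of the 205 called were lower in P-KO mice, and 65 of 107 were with FPKM scaled to 1 common sum or 83 of 136 with median-of-ratios scaling. At an unadjusted p under 0.05, 4 of the 8 (*Spp1*, *Fam20c*, *Dmp1* and *Sost*) and 5.63% of all tested genes were lower. In bulk tissue, fewer cells of a type and less RNA per cell cannot be told apart.

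In mice heterozygous for *Runx2*, all R-Het mice lay below all R-WT mice for *Ibsp*, *Spp1* and *Fam20c*. These are the 3 genes grouped here as matrix genes, and the same held for none of the 5 tested osteocyte genes. Among 15 further osteocyte genes tested, however, it held for 3, so a split by stage was not borne out there. It did not hold for a wider list of 14 osteoblast genes as a whole. In that list all R-Het mice lay below all R-WT mice for 1 gene. Its estimates were negative for 6 of 14, with a median log2 difference of 0.06. The collagen genes *Col1a1* and *Col1a2* were at 0.18 and 0.04. None of the 8 genes passed at adjusted p under 0.05 in the limma fit, where 1.49% of all tested genes were lower and 0.398% were higher. At an unadjusted p under 0.05, 3 of the 8 and 8.32% of all tested genes were lower. All R-Het mice lay below all R-WT mice for 10.4% of all tested genes. The median log2 difference of the 8 was -0.32 against 0.02 over all genes, and 6 of 8 estimates were negative.

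**Figure D2:**
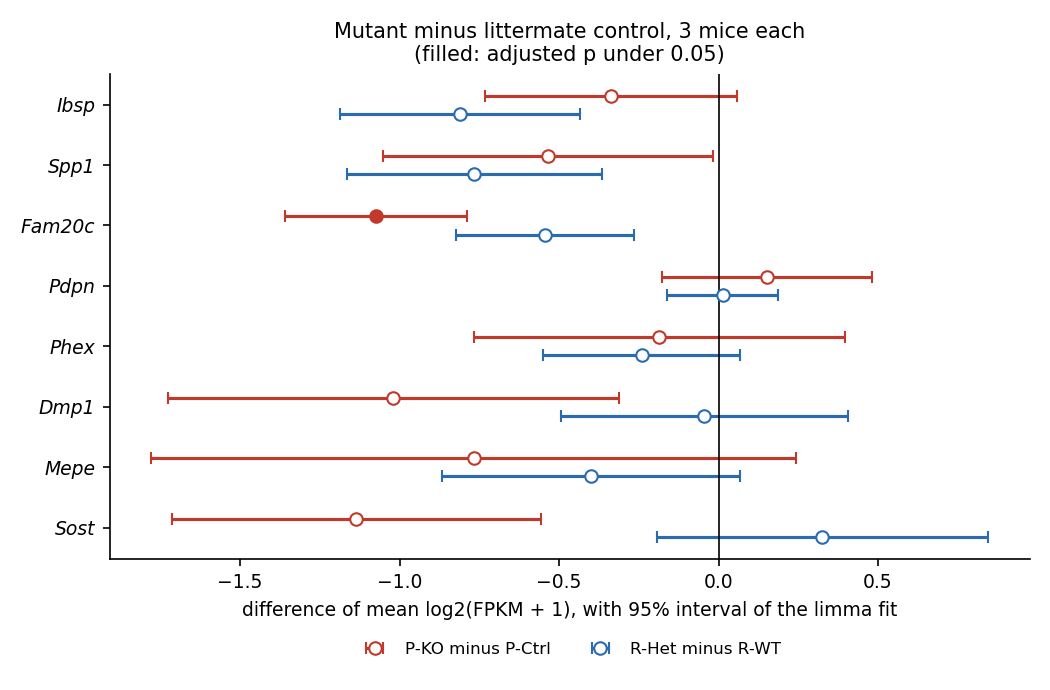
Difference of mean log2(FPKM + 1) between mutant and littermate control mice (x axis) for the 8 tested genes (y axis, in order from matrix to late osteocyte genes), 3 mice per group, with the 95% interval of the limma fit. Filled symbols passed at adjusted p under 0.05, which only *Fam20c* in P-KO did, and the intervals of *Sost* in both sets do not overlap.

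*Fam20c* encodes the Golgi kinase that phosphorylates SIBLING proteins and other secreted proteins. It was at 33.8, 34.5 and 30.3 FPKM in P-Ctrl mice and at 17.6, 12.8 and 15.1 in P-KO mice. The groups were far apart, and the P-KO mean of 15.2 ± 2.38 FPKM (SD, n = 3) was 53.8% lower than the control mean of 32.9 ± 2.22. On the log2(FPKM + 1) scale *Fam20c* fell by 1.073 (SE 0.12, adjusted p = 0.0211). In the *Runx2* set it was at 27.6, 33.2 and 25.7 FPKM in R-WT and at 21.8, 18.8 and 17.7 in R-Het mice. The R-Het mice were again all lower, with a log2 difference of -0.54 (SE 0.12) and an adjusted p of 0.0713. The difference between both effects was -0.53 (SE 0.18, unadjusted p = 0.0123 and adjusted p = 0.187 in the limma fit of 12 mice). The call in P-KO mice was lost when any 1 of the 6 mice was left out (adjusted p 0.0513 to 0.0922, log2 difference -1.18 to -0.97), without the filter on low values (0.0592) and with male libraries only (0.148, with 1 control, P-Ctrl mouse 1, left against 3 P-KO mice). Its direction was the same in each of those fits.

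*Ibsp* encodes bone sialoprotein, which binds integrins and seeds hydroxyapatite in new bone. It was at 1402, 907 and 1266 FPKM in R-WT mice and at 627, 699 and 680 in R-Het mice. R-Het mice lay close together (coefficient of variation 5.6%) and below the lowest control. Their mean of 669 ± 37.4 FPKM was 43.9% lower than 1192 ± 256 in R-WT. The log2 difference was -0.81 (95% interval -1.19 to -0.43), with an adjusted p of 0.0551. It passed at 0.0366 without R-WT mouse 2, the control with the lowest *Ibsp*, whereas the adjusted p was 0.104 to 0.191 without any other mouse, 0.129 without the filter on low values and 0.106 with a replicate block. In the *Med23* set, *Ibsp* was at 1459, 1067 and 1193 FPKM in P-Ctrl and at 1105, 1059 and 786 in P-KO mice. P-KO mouse 1 lay within the controls, and the difference of -0.34 (SE 0.17, adjusted p = 0.297) did not pass.

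*Spp1* encodes osteopontin, an integrin ligand and inhibitor of mineral growth that osteoblasts, osteocytes and osteoclasts all make. It was at 19135, 15059 and 19342 FPKM in R-WT mice and at 9444, 9860 and 12168 in R-Het mice. Both groups were apart, and the R-Het mean was 41.2% lower. The log2 difference was -0.77 (SE 0.17, adjusted p = 0.0746). In the *Med23* set, *Spp1* was at 19127, 11569 and 16225 FPKM in P-Ctrl and at 12931, 9761 and 9353 in P-KO mice. The groups overlapped at P-Ctrl mouse 2 and P-KO mouse 1, and the log2 difference was -0.53 (SE 0.22, adjusted p = 0.223). With the FPKM of every mouse scaled to 1 common sum, *Ibsp* and *Spp1* both passed in R-Het mice, at adjusted p 0.0217 and 0.0160. Over all alternatives the adjusted p ranged from 0.0194 to 0.191 for *Ibsp* and from 0.0119 to 0.317 for *Spp1*.

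*Spp1* is the only one of the 9 genes listed with several transcripts. A single transcript form carried 92.0% to 94.3% of its FPKM in every mouse of all groups. The next form carried 5.15% to 6.80%. A minor form that starts about 1 kb further downstream carried 0.602% to 0.700% in P-Ctrl and 0.370% to 0.419% in P-KO mice. Those ranges did not overlap, whereas those of R-WT (0.402% to 0.575%) and R-Het (0.257% to 0.612%) did. The shares of such minor forms are estimates of how shared fragments were divided, and their error is not in the files. The stretch of *Spp1* shown above belongs to the main form.

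Of the early osteocyte genes, *Dmp1* had the largest estimate of a difference between the sets, which did not pass. *Dmp1* encodes dentin matrix protein 1, which binds calcium in the matrix and whose loss raises FGF23. It was at 307, 179 and 207 FPKM in P-Ctrl mice and at 174, 91.8 and 84.5 in P-KO mice. P-KO mouse 1 was only just below the lowest control, and the P-KO mean of 117 ± 49.6 FPKM was 49.5% lower than 231 ± 67.2. The log2 difference of -1.02 (SE 0.30) had an adjusted p of 0.124. In the *Runx2* set *Dmp1* was at 180, 224 and 182 FPKM in R-WT and at 256, 148 and 178 in R-Het mice. The highest value and the 2 lowest were all from R-Het mice, and the difference of -0.04 had an interval of -0.49 to 0.41. The effects differed by -0.97 (SE 0.40, unadjusted p = 0.0325, adjusted p = 0.270).

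*Mepe* encodes matrix extracellular phosphoglycoprotein, whose acidic peptide inhibits mineralization. It was at 109, 55.0 and 106 FPKM in P-Ctrl and at 73.4, 67.6 and 25.2 in P-KO mice. In these groups its coefficients of variation, 33.7% and 47.5%, were the highest of the 8 tested genes, and the groups overlapped. The log2 difference was -0.77 (SE 0.43, adjusted p = 0.351), and without P-KO mouse 3 it was -0.29. *Mepe* was at 92.7, 69.2 and 71.9 FPKM in R-WT and at 42.1, 66.5 and 70.6 in R-Het mice. R-Het mouse 3 lay above R-WT mouse 2, so the groups overlapped, and the difference of -0.40 (SE 0.20) had an adjusted p of 0.405.

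*Phex*, on the X chromosome, encodes the membrane endopeptidase mutated in X-linked hypophosphatemia. It was at 90.0, 61.2 and 91.7 FPKM in P-Ctrl, 81.8, 86.6 and 48.2 in P-KO, 76.3, 65.3 and 70.2 in R-WT and 54.3, 72.9 and 53.0 in R-Het mice. Mutants and controls overlapped in both sets, with log2 differences of -0.19 (interval -0.77 to 0.40) and -0.24 (-0.55 to 0.07). *Pdpn* encodes podoplanin (E11), a membrane glycoprotein of the newly embedded osteocyte. It was at 52.4, 46.2 and 66.9 FPKM in P-Ctrl and 58.5, 66.5 and 57.6 in P-KO mice, and at 65.3, 62.5 and 61.2 in R-WT and 61.6, 64.6 and 64.6 in R-Het mice. *Pdpn* was the steadiest of the 8 tested genes in the *Runx2* set, with an interval of -0.16 to 0.19 for the difference in R-Het mice. In P-KO mice its interval was -0.18 to 0.48. Podoplanin is also a marker of lymphatic endothelium, of which *Lyve1* alone of 5 markers was high enough to be tested. *Prox1*, the defining factor of those cells, reached at most 0.18 FPKM. The summed level of the 5 was 10.2 to 20.2 FPKM in P-Ctrl, 14.6 to 26.7 in P-KO, 12.8 to 18.5 in R-WT and 13.7 to 23.0 in R-Het mice. The part of lymphatic cells in the level of *Pdpn* was not tested.

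*Sost* encodes sclerostin, the inhibitor of Wnt signalling that mature osteocytes secrete. It was at 13.0, 17.4 and 18.1 FPKM in P-Ctrl mice and at 4.72, 6.20 and 10.3 in P-KO mice. All P-KO mice were lower, and their mean of 7.07 ± 2.88 FPKM was 56.3% below 16.2 ± 2.74. The log2 difference was -1.14 (SE 0.25, adjusted p = 0.0715). The highest values were those of the female controls, P-Ctrl mice 2 and 3. With male libraries only, which left P-Ctrl mouse 1 as the 1 control, *Sost* differed by -0.86, while *Dmp1* differed by -1.47. In the *Runx2* set *Sost* was at 7.25, 12.4 and 10.4 FPKM in R-WT and at 13.0, 16.2 and 9.35 in R-Het mice. There 2 of 3 R-Het mice were above all controls, and the difference was 0.33 (SE 0.22, adjusted p = 0.549). The effects differed by -1.46 (interval -2.28 to -0.64, unadjusted p = 0.00219), the largest difference between sets among the 8 genes in size, with an adjusted p of 0.0975. With male libraries only, the effects on *Sost* differed by -0.99. None of the 8 genes differed between the sets at adjusted p under 0.05 in the limma fit, where 0.153% of all tested genes did, and 3 of the 8 (*Fam20c*, *Dmp1* and *Sost*) and 15.3% of all tested genes did at an unadjusted p under 0.05. *Sost* rests on about 83.2 to 401 fragments per mouse. The mean of R-WT mice was 10.04 ± 2.62 FPKM, against 16.2 ± 2.74 in P-Ctrl mice, so the control groups of both sets also stood apart for this gene.

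*Fgf23* encodes the phosphate hormone of osteocytes. It was at 0.477, 0.227 and 0.257 FPKM in P-Ctrl, 0.0475, 0 and 0.238 in P-KO, 0.207, 0.469 and 0.370 in R-WT and 0.0433, 0.736 and 0.210 in R-Het mice. These values correspond to at most about 11.8 fragments per mouse. A difference was not detectable at this depth.

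P-KO mouse 3 had the lowest value of its group for 6 of the 8 tested genes (*Ibsp*, *Spp1*, *Pdpn*, *Phex*, *Dmp1* and *Mepe*), and P-Ctrl mouse 2 for the same 6. *Fam20c* and *Sost* were not among them in either mouse. P-KO mouse 1 was the highest of its group for 5 genes. In R-WT and R-Het mice no mouse was the lowest for more than 4. R-WT mouse 1 was the highest of its group for *Ibsp* and the lowest for *Dmp1*, and R-Het mouse 1 the lowest for *Ibsp* and the highest for *Dmp1*. The 8 genes were read from the same libraries, so counts over them are not 8 separate measurements.

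Ratios within a mouse compare genes free of the scaling of libraries. *Ibsp* was 4.75, 5.95 and 5.77 times the level of *Dmp1* in P-Ctrl mice and 6.35, 11.5 and 9.31 times in P-KO mice. All 3 P-KO ratios lay above the controls, with a difference of 0.69 in mean log2 ratio (exact permutation p = 0.1, two-sided, the smallest that 3 mice against 3 allow). In R-WT mice the ratio was 7.77, 4.04 and 6.97, and in R-Het mice 2.45, 4.73 and 3.83. There it lay lower, apart from R-WT mouse 2, by a log2 difference of -0.77 (exact permutation p = 0.2). The difference between the effects was 1.46 log2 units (exact permutation over 400 assignments of genotype within sets, p = 0.02, adjusted p = 0.0625 over 5 ratios). These assignments take genotype to have no effect in either set, which is a narrower assumption than equal effects in both. The p-values for differences of ratios are therefore not tests of unequal effects alone. For *Spp1* to *Dmp1* the effects were 0.49 and -0.72 and differed by 1.21 (exact permutation p = 0.025, adjusted p = 0.0625). For *Spp1* to *Ibsp* they were -0.20 and 0.05 (exact permutation p for the difference 0.26). The ratios of *Mepe* and *Fam20c* to *Dmp1* had exact permutation p-values of 0.385 and 0.32 for the difference. The ratios were chosen with values of these genes known, and none passed after adjustment.

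**Figure D3:**
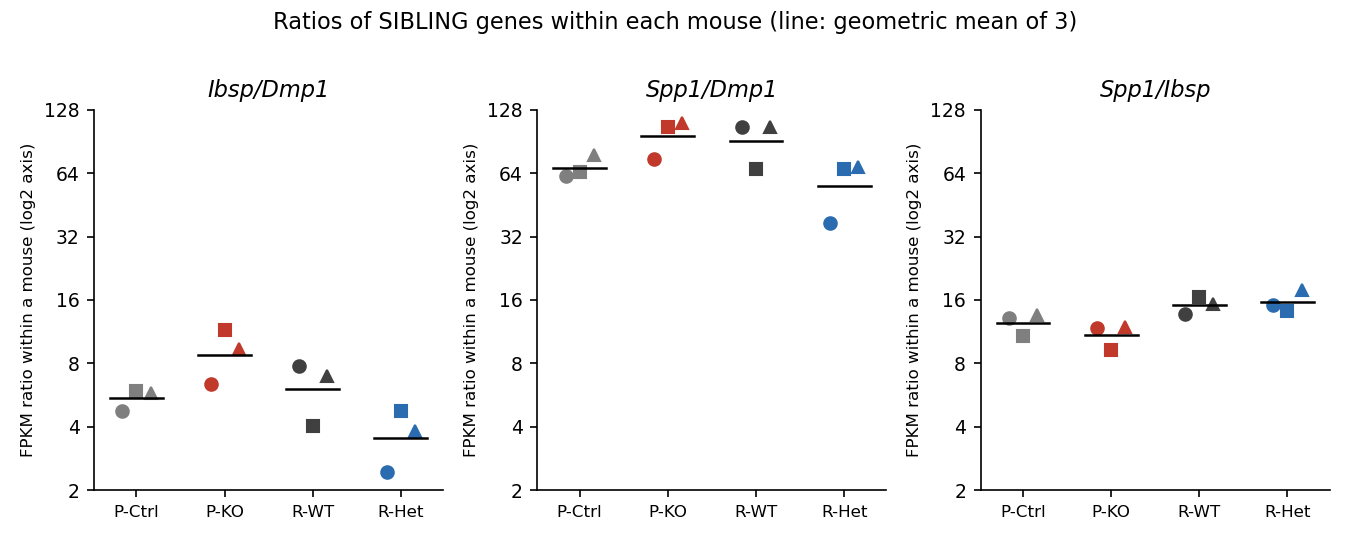
Ratio of FPKM between pairs of SIBLING genes within each mouse (y axes, log2 scale) in the 4 groups, with 1 symbol per mouse and the geometric mean of 3 as a line. *Ibsp*/*Dmp1* is above the controls in all 3 P-KO mice and lower in R-Het mice apart from an overlap with R-WT mouse 2, while *Spp1*/*Ibsp* lies between 9.22 and 17.9 in all 12 mice.

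Around the cluster, 15 genes of the annotation lay within 150 kb of it on either side, itself included, and 7 were tested. Beyond the 4 SIBLING genes these were *Sparcl1*, *Pkd2* and *Thoc2l*. *Sparcl1*, a secreted relative of osteonectin, fell in both sets. It was at 41.2, 43.3 and 40.1 FPKM in P-Ctrl and 26.7, 24.9 and 29.0 in P-KO mice (log2 difference -0.61, adjusted p = 0.0313), and at 37.8, 34.2 and 37.0 in R-WT and 22.0, 25.5 and 22.0 in R-Het mice (-0.63, adjusted p = 0.0202). *Pkd2*, on the other side of *Spp1*, differed by 0.08 and 0.30 without passing. The fifth SIBLING gene, *Dspp*, which is made mainly in teeth, reached at most 0.0994 FPKM. Of the 8 further genes of the family and locus that were listed, 4 were tested and *Sparcl1* alone passed in each set, where the medians were -0.18 and -0.16.

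Receptors of the SIBLINGs did not pass the test in either set (0 of 9 tested genes of integrins and CD44). The largest estimate in both was that of *Itgb3*, the integrin subunit of osteoclasts, at -0.66 in P-KO (adjusted p = 0.317) and -0.76 in R-Het mice (adjusted p = 0.05004). The median log2 difference of the 9 was -0.15 and -0.05.

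Genes of phosphate handling and of the FGF23 pathway were lower in P-KO mice for 3 of 12 tested and higher for 0, with a median of -0.33. Over all tested genes, 0.559% were lower and 1.01% higher. With any 1 mouse left out, the genes called in this set fell from 205 to at most 35. *Slc20a2*, a sodium-phosphate cotransporter, was at 36.0, 33.0 and 26.2 FPKM in P-Ctrl and 18.3, 14.8 and 14.0 in P-KO mice (log2 difference -0.97, adjusted p = 0.0335). *Fam20a*, the pseudokinase partner of FAM20C, fell by 0.63 on the log2 scale (adjusted p = 0.0385), and the vitamin D receptor gene *Vdr* fell by 0.52 (adjusted p = 0.0430). None of the 12 passed in R-Het mice (median -0.12), where the largest estimate was 0.32 for *Fgf2* (adjusted p = 0.241).

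Of 15 further osteocyte genes tested, *Irx5*, a homeobox factor gene, fell in P-KO mice by 0.44 (adjusted p = 0.0479) and *Fbln7*, a fibulin gene, rose by 0.60 (adjusted p = 0.0430). The other 13 did not pass, among them *Tnfrsf11b* (osteoprotegerin), which had the largest estimate, -0.87 (adjusted p = 0.0990). The median was -0.25 in P-KO and 0.00 in R-Het mice, where 0 of 15 passed and the largest estimate was -0.56 for *Capg* (adjusted p = 0.0890). Of 14 osteoblast genes, 2 fell in P-KO mice, the osteocalcin genes *Bglap* (-1.95, adjusted p = 0.0401) and *Bglap2* (-1.77, adjusted p = 0.0327), which are near-identical copies whose fragments may be shared between them. All 14 estimates were negative in P-KO mice, with a median of -0.49. In R-Het mice 0 of 14 passed and the median was 0.06.

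**Figure D4:**
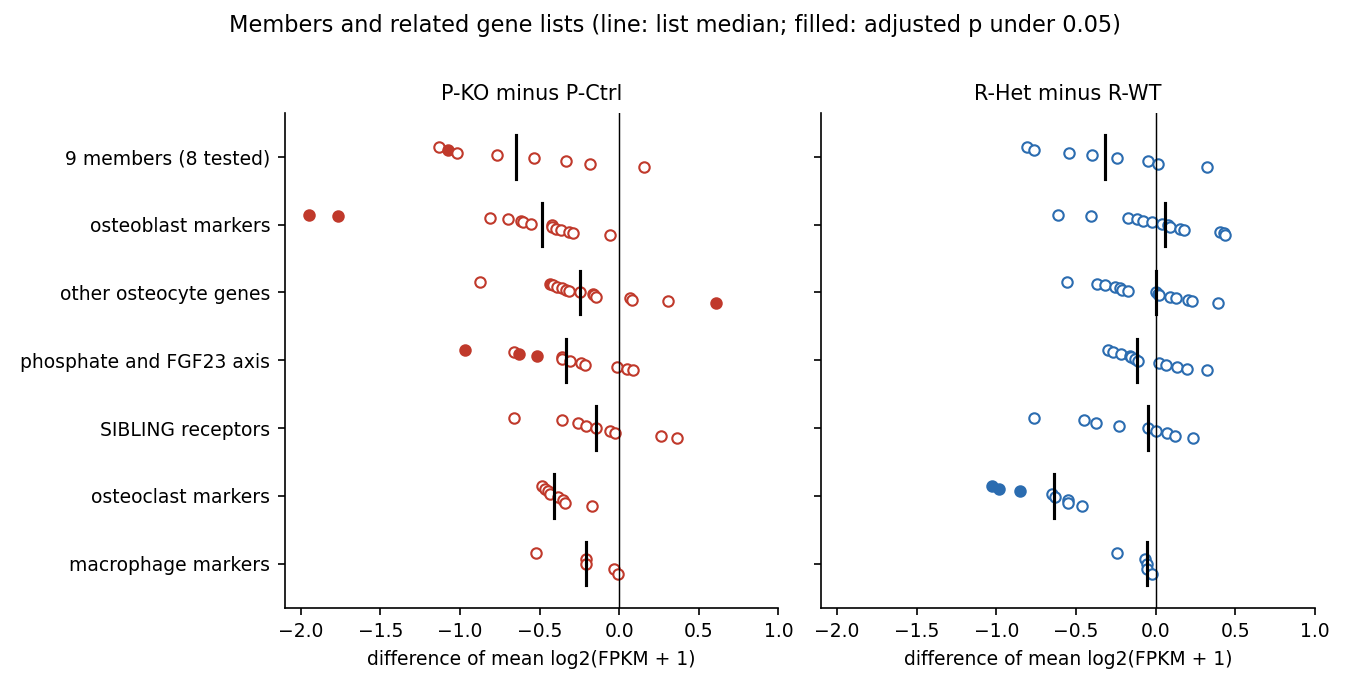
Difference of mean log2(FPKM + 1) between mutant and control mice (x axes) for each tested gene of 7 lists (y axis), with 1 circle per gene, filled at adjusted p under 0.05, and a black line at the list's median. Osteoblast genes have a median of -0.49 in P-KO and 0.06 in R-Het mice, and osteoclast genes -0.41 and -0.64.

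Markers of other cell types moved beside these genes. Of 8 osteoclast genes, 3 fell in R-Het mice, *Atp6v0d2* (-0.85, adjusted p = 0.0163), *Dcstamp* (-0.98, adjusted p = 0.0184) and *Calcr* (-1.03, adjusted p = 0.0320), and for all 8 the R-Het mice lay below the R-WT mice. Their summed level was 5154 to 6443 FPKM in R-WT and 3363 to 4200 in R-Het mice. In P-KO mice 0 of 8 passed (largest *Acp5*, -0.48, adjusted p = 0.279), with sums of 4549 to 8161 FPKM in P-Ctrl and 4171 to 5279 in P-KO. No osteoclast marker was at 0. Osteoclasts also make *Spp1*, and their part in its level in R-Het mice was not tested. Their part in the level of *Ibsp* was not tested either. None of 5 macrophage genes passed in either set, with sums of 364 to 422 FPKM in P-Ctrl, at most 369 in P-KO, 313 to 331 in R-WT and 267 to 324 in R-Het mice. The largest estimates were those of *Csf1r*, -0.52 in P-KO and -0.25 in R-Het mice.

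Skeletal muscle genes were the most uneven of all lists. Of 10, 9 fell in R-Het mice, among them *Myh8* (-3.35, adjusted p = 0.00540), *Tnnt3* (-4.04, 0.0156), *Ckm* (-4.91, 0.0169) and *Mylpf* (-4.84, 0.01999), each with its adjusted p second, and the largest estimate was that of *Tnnc2* (-5.18, adjusted p = 0.0448). Their sums were 1915 to 5642 FPKM in R-WT and 26.8 to 191 in R-Het mice. In P-KO mice 0 of 10 passed (largest *Acta1*, 3.34, adjusted p = 0.245), with 23.2 to 1386 FPKM in P-Ctrl and 600 to 4176 in P-KO. With FPKM scaled to 1 common sum outside muscle and erythroid genes, the log2 differences of *Ibsp* and *Spp1* in R-Het mice passed at adjusted p 0.0194 and 0.0119, and *Fam20c* passed in P-KO mice. None of 5 erythroid genes passed, with sums of 11400 to 14990 FPKM in P-Ctrl, 6163 to 10030 in P-KO, 13140 to 14910 in R-WT and 3330 to 13570 in R-Het mice. The largest erythroid estimate in P-KO mice was -0.75 for *Hba-a1*. None of 8 neural genes passed, although their sum of 62.5 to 65.0 FPKM in P-KO lay above 32.2 to 41.7 in P-Ctrl. The sum was 39.7 to 48.7 in R-WT and 42.0 to 64.6 in R-Het mice. The largest neural estimate in R-Het mice was 0.68 for *Gfap*. Of 5 tested cartilage genes, *Col2a1* fell in P-KO mice (-0.86, adjusted p = 0.0404) and none passed in R-Het mice. The largest cartilage estimates, those of *Matn1*, were -1.32 and 0.95 and did not pass. Cartilage sums were 35.2 to 57.4 FPKM in P-Ctrl, 29.7 to 45.0 in P-KO, 24.8 to 39.4 in R-WT and 36.9 to 80.1 in R-Het mice. The 5 epidermal genes summed to at most 5.47 FPKM in any mouse, and *Krt10*, the single one tested, did not pass (0.29 and 0.33). The part of these tissues in the levels of the 9 genes was not tested.

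Over the 12 mice, *Ibsp* was most like *Skap2* among all tested genes outside the 9, by the root mean square (RMS) difference of centred log2(FPKM + 1), which was 0.136 against an RMS deviation of 0.399 for *Ibsp* itself. *Dnase2a* (0.148) and *Pstpip1* (0.165) came next. *Spp1* was most like *Timp1* (0.138), *St8sia4* (0.157) and *Emb* (0.175), with 0.257 between *Ibsp* and *Spp1*. *Dmp1* had no such close neighbour. *Syt12* (0.240), *Nkd2* (0.245) and *Clu* (0.255) were the nearest to it, and *Fam20c* (0.335) the nearest of the 9. *Mepe* was nearest to *Il13ra1* (0.291), *Xdh* (0.292) and *Cd109* (0.307), and among the 9 to *Phex* (0.348). These likenesses are descriptions over mice of 4 genotypes and carry no test.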

How the data were processed

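RNA-seq was made from 12 mouse calvariae (Trizol RNA, TruSeq libraries). The authors deposited 1 FPKM value per RefSeq transcript and mouse (30411 transcripts), a unit inferred from the values. The submitters' processing notes name Bowtie 0.12.8 and build mm10, without roles, and counting by strand is not given in the sources used here. FPKM were summed over the transcripts of a symbol, by the NCBI table of GRCm38 (29835) or GENCODE M21 (180), and 396 transcripts kept their identifier. A gene entered the tests if 3 or more of the 12 mice had 1 FPKM or more.

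Mutants were compared with their littermates on log2(FPKM + 1), which understates fold changes of low genes. A limma model of those 6 mice, without covariates, used a trended prior variance, and p-values (two-sided) were adjusted by Benjamini-Hochberg over 13059 genes. The difference between sets was a contrast in a model of 12 mice. R 4.3.3, limma 3.58.1, Python 3.11.15, pandas 2.3.3, numpy 2.4.6 and matplotlib 3.10.9 were used. The fits were tested on simulated data. Depth was estimated from the smallest FPKM steps with GENCODE lengths and is rough.

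The 9 genes and the lists were chosen with earlier results of these data known. Named are all 9 genes, *Med23*, *Runx2*, of each other list the genes that passed (up to 4 by p) and the largest estimate, and the 3 genes nearest to *Ibsp*, *Spp1*, *Dmp1* and *Mepe*. Some marker genes that this rule picks are not reported here. Genes within 150 kb of the cluster were named by position. Alternatives were a pseudocount of 0.1, no filter, a joint model of all mice, a block by replicate number, 3 other scalings, no trend, the most abundant transcript, each mouse left out and, chosen after the data were seen, male libraries only and ratios with each mouse left out. RefSeq promoter windows matched all 9 genes.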

Additional observations from a re-analysis of the deposited data

How the results depend on the processing

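Counts of all called genes moved more than the 9 genes' own estimates did. In the *Med23* set, 205 genes were called (73 lower), and 1 without the filter on low values, 717 with all 12 mice in 1 fit, 107 with 1 common FPKM sum, over all genes or outside muscle and erythroid genes, 136 with median-of-ratios scaling, 89 without the mean-variance trend, 57 with the most abundant transcript and 0 with male libraries, a fit with 1 control mouse whose spread is taken from the other group. In the *Runx2* set, 247 were called (195 lower), and 14 without the filter, 95 with all 12 mice, 111 with the most abundant transcript and 34 with male libraries. For the difference between sets, 20 were called, and 6 without the filter, 37 with either common sum and 1 with male libraries. With 1 mouse left out these counts were 0 to 35, 34 to 169 and 2 to 164. The cause of these moves was not tested.

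Of the 9 genes, 1 was called in P-KO mice, and 0 without the filter, with any mouse left out (0 to 0) or with male libraries (where 1 control mouse says little about stability), and 2 with all 12 mice in 1 fit (*Sost* at adjusted p 0.0358 in addition). In R-Het mice 0 were called, 2 with either common sum, and 0 to 1 with 1 mouse left out. For the difference between sets 0 were called with any mouse left out (0 to 0). Whether the numbers of the mice pair them is not given. Correlations of deviations of same-numbered mice were 0.18, 0.259 and 0.0527 in the *Med23* set, each the best for its own number. In the *Runx2* set they were 0.00482, -0.0474 and -0.0836, and none was the best for its own number. Pairing in the *Med23* set was thus not settled, and the main fits do not use it. With a replicate block, 273, 90 and 136 genes were called in the *Med23* set, the *Runx2* set and for the difference. Of the 9 genes, 3 were then called in P-KO mice, with *Sost* (0.0315) and *Dmp1* (0.0293) added, 0 in R-Het mice, and 1 for the difference (*Sost*, 0.0481).

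Over 424 alternative values of the 8 tested genes, 391 kept direction and side of the threshold and 16 turned direction, all from estimates that had not passed. *Phex* in P-KO mice was at 0.0783 without P-KO mouse 3 (range -0.37 to 0.0783). *Pdpn* in R-Het mice was at -0.00524 with median-of-ratios scaling and at -0.00684 to 0.0383 with 1 mouse left out. *Dmp1* in R-Het mice was at 0.0584 without R-WT mouse 2 and 0.131 without R-Het mouse 2 (range -0.26 to 0.131). For the difference between sets, *Phex* was at -0.0829 and -0.0754 with the common sums, -0.176 with male libraries and -0.132 to 0.319 with 1 mouse left out. *Mepe* reached 0.114 without P-KO mouse 3 (lowest -0.69), and *Spp1* was at -0.145 with male libraries. The log2 ratio of *Spp1* to *Ibsp* in R-Het mice ran from -0.0532 to 0.118 with 1 mouse left out, and the other ratios given for P-KO and R-Het mice kept their direction. Scaling moved the median of all genes by under 0.1 within each set, from 0.06 to -0.03 in P-KO at most, and that of the difference between sets from 0.04 to -0.0853. Depth limits *Fgf23* and *Sost* most.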
